A study of Rattus norvegicus with 22 samples.

Results

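Maternal liver of pregnant Wistar rats dosed with EMD 82571 was compared with maternal liver of rats dosed with retinoic acid, by arrays that measured RNA levels. The arrays were chosen by their labels: 4 of EMD 82571 and 3 of retinoic acid, 7 of the 22 arrays in all. EMD 82571 is a calcium sensitiser, a drug type that makes heart muscle contract more strongly at a given calcium level. Retinoic acid, the active form of vitamin A, causes malformations when given in pregnancy. The groups were EMD50 (50 mg/kg/day) and EMD150 (150 mg/kg/day), with 1 array each at gestational days 12 and 20, and retinoic acid (12 mg/kg/day), with 2 arrays at day 12 (coded RA5 and RA56) and 1 at day 20 (RA56). No label explains these codes. The protocol gives daily dosing on days 6 to 11 and on days 6 to 17 in a sentence that can be read as 1 period for each drug or as 1 for each day of sampling, whereas the design text names days 6 to 17 alone. The 2 maternal liver controls, 1 per day, were left out of the comparison, and their values are given for reference. Control dams received the vehicle. Age and any pooling of dams are not stated in the labels, and nothing says whether the arrays came from separate dams, so p-values measure only the spread between these samples.

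The liver disposes of drugs in steps. Cytochrome P450 enzymes oxidise a compound, transferases such as the UDP-glucuronosyltransferases and glutathione S-transferases attach a polar group, and membrane pumps export the product into bile or blood. In rodents the nuclear receptors CAR and PXR raise genes of the Cyp2b and Cyp3a subfamilies, several transferases and the pump Abcc3 when foreign compounds enter the liver. Retinoic acid has its own disposal route: it binds the retinoic acid receptor (RAR) at response elements made of a repeated short motif, and one of the genes so raised is Cyp26a1, the P450 enzyme that oxidises retinoic acid.

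The promoter of Cyp26a1 is shown because this gene separated the treatments most among all genes at day 12. The 250 bases before its start (RefSeq, GRCr8, chr1:244883572-244883821, + strand) hold 1 direct repeat with a spacer of 5 bases (DR5), the arrangement that RAR binds, in capitals:
Cyp26a1: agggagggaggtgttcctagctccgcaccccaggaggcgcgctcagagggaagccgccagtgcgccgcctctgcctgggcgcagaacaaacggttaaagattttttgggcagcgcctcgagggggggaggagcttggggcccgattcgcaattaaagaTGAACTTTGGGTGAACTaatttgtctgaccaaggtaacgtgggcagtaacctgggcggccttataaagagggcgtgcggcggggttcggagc
The capitals read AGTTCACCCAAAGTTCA on the other strand, and 75 bases lie between them and the start. The search covered both strands, and each unit of the repeat could be AGGTCA or AGTTCA, and likewise GGGTCA or GGTTCA. A DR5 was found in the same window of 109 of 33469 rat promoters (0.326%). The window of Ugt2b1 held none. A match describes letters only.

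The tissue label was borne out by hepatocyte genes. In all 9 maternal liver arrays the albumin gene Alb had a log2 level of 15.13 to 15.22. The mean of 19 measured hepatocyte markers ran between 13.46 and 13.64 in the EMD 82571 arrays and between 13.46 and 13.69 in the retinoic acid arrays.

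Among the arrays, 2 carried genes of another tissue. The EMD50 array of day 12 had Prss1, a trypsinogen of pancreatic acinar cells, at 10.61, against 7.17 to 7.63 in the other 3 EMD 82571 arrays and 7.07 to 7.25 in the retinoic acid arrays. Its mean over 26 acinar markers was 8.60, against 7.21 to 7.42 in the other 6 arrays, and both controls stood higher than those 6 as well, at 9.04 (day 12) and 8.14 (day 20). The retinoic acid array of day 20 had Acta1, the skeletal muscle actin, at 12.83, against 6.32 to 6.85 in the EMD 82571 arrays and 6.37 to 6.45 in the other retinoic acid arrays. Its mean over 40 muscle markers was 8.94, against 7.15 to 7.32 in the other 6 arrays. The acinar list had 25 of 26 genes higher in EMD 82571 (median 0.472), and 23 of 26 (median 0.107) without the EMD50 array. The muscle list had 4 of 40 higher (median −0.486), and 22 of 40 (median 0.018) without the retinoic acid array of day 20. Differences given for day 12 do not use that array.

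**Figure D1:**
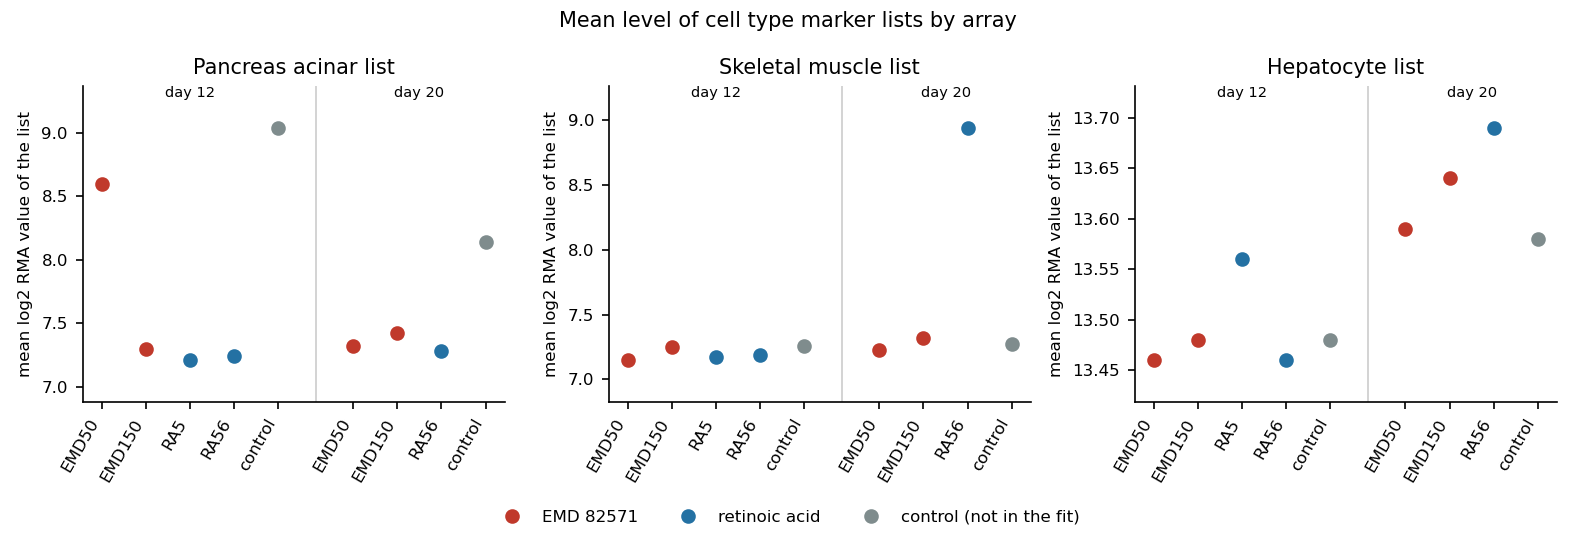
Mean log2 RMA value of the pancreas acinar, skeletal muscle and hepatocyte marker lists (vertical axes) in each maternal liver array (horizontal axis, by treatment and day). The EMD50 array of day 12 stands at 8.60 in the acinar panel and the retinoic acid array of day 20 at 8.94 in the muscle panel, while the hepatocyte means of all 9 arrays lie between 13.46 and 13.69.

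The retinoic acid array of day 20 also lay between the days. In the EMD 82571 and control arrays, 69 genes were at least 2-fold lower at day 20 than at day 12 without overlap, and 49 were higher. The retinoic acid array of day 20 lay nearer the mean of day 12 for 47 of the 69 (68.1%) and for 13 of the 49 (26.5%). The retinoic acid arrays of day 12 lay nearer the mean of day 12 for 66 and 68 of the 69, and for 31 and 42 of the 49. Over all probe sets this array correlated at 0.983 and 0.984 with the retinoic acid arrays of day 12, and at 0.979 with both EMD 82571 arrays of day 20. Whether its stage of pregnancy differed was not tested.

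With day as a block, no gene passed the test between the treatments. Of 15866 probe sets, 0 had an adjusted p under 0.05 in limma, and the smallest limma adjusted p was 0.212. At an unadjusted p under 0.05 there were 1277 probe sets, 555 higher and 722 lower in EMD 82571. Counted as 1 probe set per gene, that was 321 of 10411 genes higher (3.08%) and 476 lower (4.57%). So the values below are given as levels and differences, and "higher" or "lower" describes these arrays without a passed test unless one is stated.

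At day 12 the largest differences were in Cyp26a1, higher in retinoic acid livers, and in the Cyp2b subfamily, higher in EMD 82571 livers. Cyp26a1 stood at 7.58 (EMD50) and 7.23 (EMD150), against 10.05 (RA5) and 11.62 (RA56), with 7.29 in the control. All EMD 82571 values lay below both retinoic acid values, and near the control. The difference at day 12 was −3.43 ± 0.47 (SE), so retinoic acid livers were 10.8-fold above EMD 82571 livers. At day 20 the order was turned: Cyp26a1 stood at 9.43 (EMD50) and 8.49 (EMD150), against 7.60 (RA56) and 8.17 in the control. Over both days the difference was −1.52 ± 0.86 (limma's adjusted p = 0.661), and the change of the difference between days was 4.79 (limma's adjusted p = 0.0583), which did not pass.

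A probe set annotated to 2 genes of this subfamily, so named here only by the subfamily, stood at 9.68 (EMD50) and 12.10 (EMD150) at day 12, against 7.67 (RA5) and 7.28 (RA56), with 7.59 in the control. Both doses lay above the retinoic acid arrays and the control, EMD150 by far the most. The mean difference at day 12 was 3.41 ± 0.64 (SE), or 10.7-fold (limma's adjusted p = 0.481). At day 20 it stood at 7.97 (EMD50) and 8.83 (EMD150), against 7.78 (RA56) and 8.38 in the control. The control lay between the doses at that day. Both arrays that carry another tissue's genes were also left out, a setting added after seeing the data. No retinoic acid array of day 20 then remains, so day 20 adds nothing to the difference. What is left is the EMD150 array of day 12 alone against RA5 and RA56, a difference of 4.6 without a replicate.

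Ugt2b1, a glucuronosyltransferase, stood at 11.94 (EMD50) and 12.55 (EMD150) at day 12, against 11.28 (RA5) and 11.16 (RA56), with 11.24 in the control. Abcc3, a pump that exports conjugates into blood, stood at 7.95 (EMD50) and 8.68 (EMD150), against 7.31 (RA5) and 7.44 (RA56), with 7.36 in the control. Both genes were thus highest at the higher dose, with the retinoic acid arrays near the control. The differences at day 12 were 1.02 ± 0.22 for Ugt2b1 and 0.94 ± 0.22 for Abcc3 (SE), and neither passed (limma's adjusted p = 0.676 and 0.757). At day 20 Ugt2b1 stood at 11.12 (EMD50) and 11.53 (EMD150), against 11.68 (RA56) and 10.66 in the control. Abcc3 then stood at 6.94 and 7.25, against 7.23 and a control of 7.16. At that day neither gene had a higher mean in EMD 82571 than in the single retinoic acid array. For Ugt2b1 both EMD 82571 arrays and the retinoic acid array stood above the control. Over both days the differences were 0.47 ± 0.28 and 0.51 ± 0.24 (limma's adjusted p = 0.672 and 0.621).

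**Figure D2:**
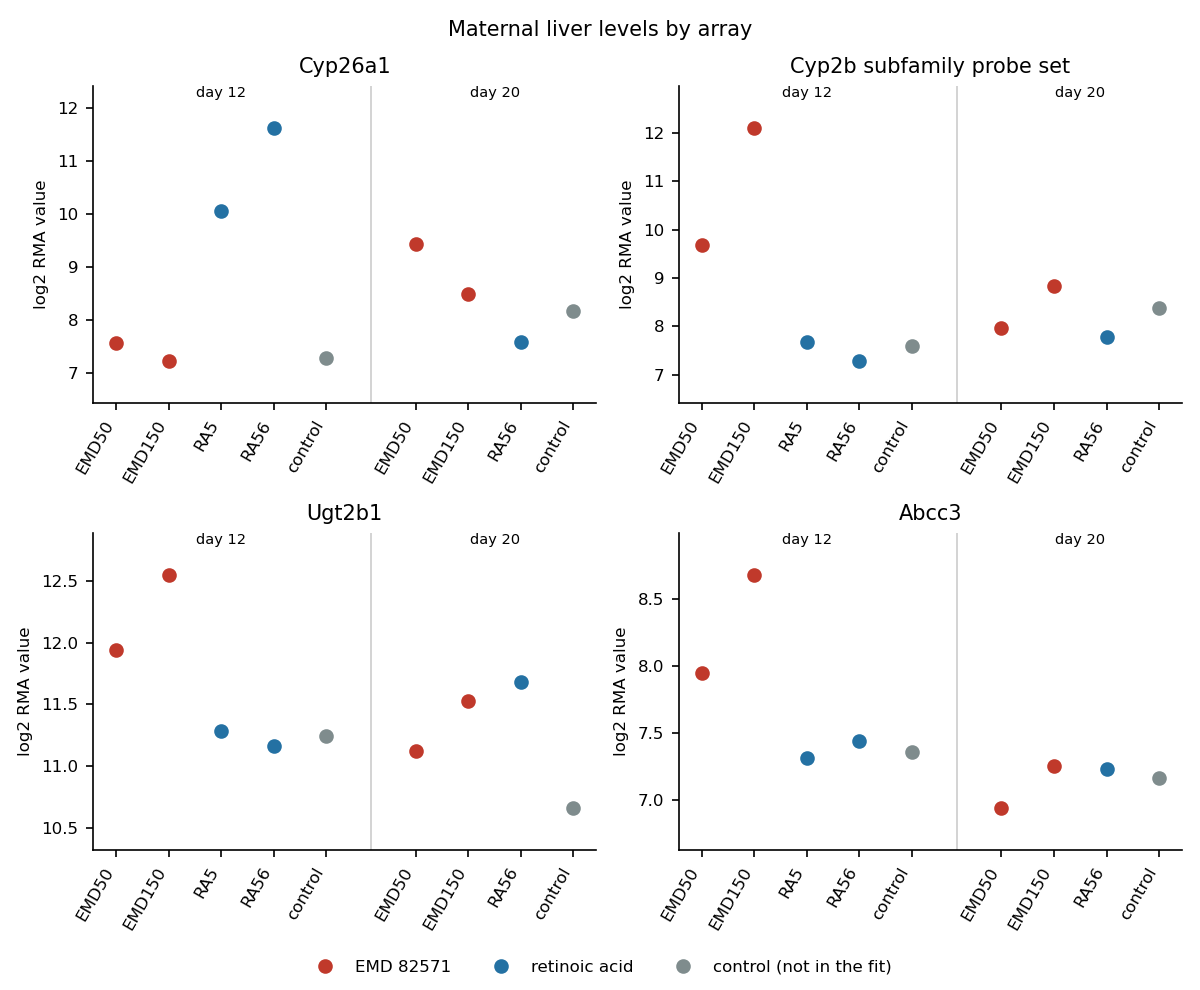
Log2 RMA value (vertical axes) of Cyp26a1, the Cyp2b subfamily probe set, Ugt2b1 and Abcc3 in each maternal liver array (horizontal axis, by treatment and day, 1 point per array). At day 12 both retinoic acid arrays stand above both EMD 82571 arrays for Cyp26a1 (10.05 and 11.62 against 7.58 and 7.23 on the EMD side), and below them in the other 3 panels; at day 20 the order is turned for Cyp26a1 and Ugt2b1, Abcc3 overlaps, and the gap of the Cyp2b subfamily probe set is smaller.

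A wider view of day 12 was taken after its values were seen. At that day 27 of 10411 genes (0.259%) differed by at least 2-fold, and 22 of these did not overlap between the treatments, 14 higher and 8 lower in EMD 82571. Of all genes, 21.3% lay higher and 21.5% lower without overlap at that day. Of the 14 higher, 6 belong to the acinar list and follow the EMD50 array. Outside that list, Rnase1l2 stood at 9.21 (EMD50) and 6.80 (EMD150), against 6.50 (RA5) and 6.66 (RA56). A2m stood at 7.89 and 11.21, against 7.63 and 7.54, so each of these rests mainly on 1 dose. The others include Slco1a4, a hepatocyte importer of organic anions, with 11.80 (EMD50) and 11.65 (EMD150), against 10.68 (RA5) and 10.57 (RA56). Its difference at day 12 was 1.10 ± 0.18 (SE, limma's adjusted p = 0.454), and a second probe set of the gene gave 1.50 ± 0.42 (limma's adjusted p = 0.999). When the 4 arrays of day 12 were fitted on their own, the second probe set was the only call (limma's adjusted p = 0.0474), and the first had a limma adjusted p of 0.0679. Its difference was the same in that fit, 1.10, as was the 1.50 of the second, whose SE there was only 0.12. At day 20 the differences of the 2 probe sets were −0.43 and −1.35, so the order was turned.

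Gsta3, a glutathione S-transferase, stood at 10.34 (EMD50) and 10.62 (EMD150), against 9.22 (RA5) and 9.39 (RA56), with 9.59 in the control. Aldh1a1, an aldehyde dehydrogenase that also makes retinoic acid from retinal, stood at 11.11 and 11.53, against 9.71 and 10.16, with 10.89 in the control. Here the EMD 82571 arrays lay nearer the control than the retinoic acid arrays did. Cyp3a23-3a1, a P450 of the subfamily that PXR controls, stood at 12.97 and 13.26, against 12.05 and 12.18, with 12.15 in the control. Ephx1, the microsomal epoxide hydrolase, stood at 12.52 and 12.95, against 12.08 and 12.05, with 12.10 in the control. For these 2 genes the retinoic acid arrays and the control lay together, below both doses. At day 20 the differences of Gsta3, Aldh1a1, Cyp3a23-3a1 and Ephx1 were −0.90, −0.06, −0.48 and −0.13 against the single retinoic acid array. The lower of the 2 EMD 82571 arrays stood above the control of that day for each gene, at 8.35, 10.18, 11.78 and 11.96, against 7.57, 9.93, 11.52 and 11.64. The retinoic acid array of day 20 stood further above that control than this lower array, at 9.57, 10.65, 12.45 and 12.09. It also stood above the other EMD 82571 array, except for Aldh1a1, where EMD150 was higher, at 11.00.

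The genes lower in EMD 82571 at day 12 were Cyp26a1, Apoa4, Sult1c3, Mt2A, Hamp, Mest, Slc25a25 and Acmsd. Apoa4, a lipoprotein component, stood at 9.98 (EMD50) and 10.37 (EMD150), against 11.47 (RA5) and 11.69 (RA56). The control of that day, at 11.00, lay between the treatments. Mt2A, a metallothionein, stood at 11.16 and 10.75, against 12.21 and 12.11, with 10.86 in the control. Hamp, the gene of hepcidin, the hormone that limits iron uptake, stood at 12.21 and 11.13, against 12.69 and 12.78, with a control between the doses at 11.96. Sult1c3, a sulfotransferase, stood at 8.72 and 8.56, against 10.28 and 9.42, with 8.48 in the control. For Mt2A and Sult1c3 it was thus the retinoic acid arrays that stood away from the control. At day 20 the differences of Apoa4, Hamp and Sult1c3 were 0.51, 0.65 and 0.47, turned from those of day 12.

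**Figure D3:**
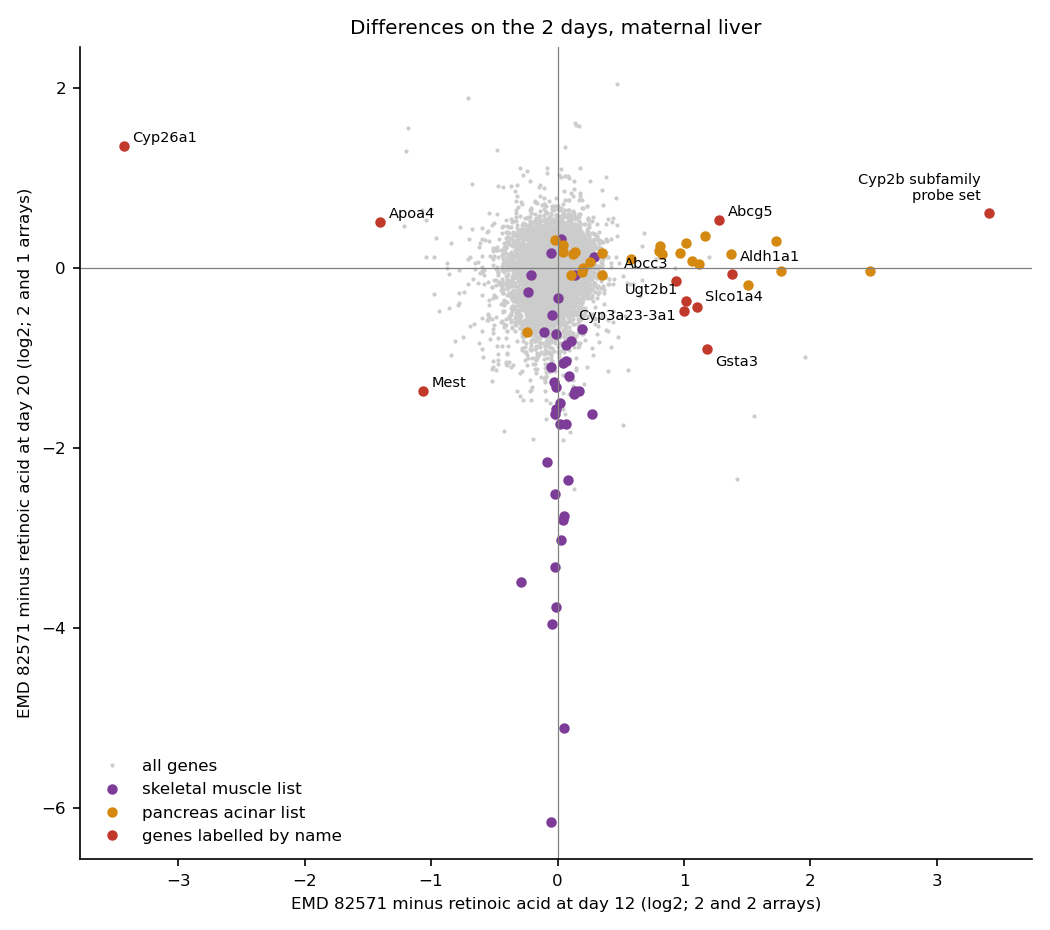
Difference between EMD 82571 and retinoic acid at day 12 (horizontal axis, log2) and at day 20 (vertical axis, log2), 1 point per gene for 10411 genes plus the Cyp2b subfamily probe set. Cyp26a1 (−3.43 at day 12) and the Cyp2b subfamily probe set (3.41) lie at opposite ends of the day 12 axis, skeletal muscle genes run down the day 20 axis, and acinar genes run along the day 12 axis.

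Of 48 measured genes of drug oxidation, 29 were higher in EMD 82571 over both days (median 0.068), of 47 conjugation genes 22 (median −0.012), and of 33 transporters 22 (median 0.097). Over all genes 54.7% were higher and 45.3% lower (median 0.015). At an unadjusted p under 0.05 the oxidation list held 6 genes higher and 3 lower, the conjugation list 2 and 3, and the transporter list 4 and 3, and 0 passed after adjustment in limma, beside 3.08% higher and 4.57% lower over all genes. After quantile normalisation 10 of 48 oxidation genes and 7 of 33 transporters were higher at that p, against 304 of 10411 genes. On the lower side were 3 and 1, against 401. After scaling to a common median and MAD, 8 and 6 were higher, against 237, and 2 and 1 lower, against 451. Of the 48 oxidation genes 37 were higher after that scaling, and 24 without the retinoic acid array of day 20. Over all 10411 genes it was 5426 and 5212. The direction of the conjugation list depended on scaling, since 30 of 47 were higher after quantile normalisation. In the oxidation list Adh4, an alcohol dehydrogenase that also oxidises retinol, had a difference of 0.56 ± 0.15, and Fmo1, a flavin monooxygenase, one of −0.58 ± 0.17 (SE). Nr1i3, which encodes CAR, stood at 6.87 and 6.96 (EMD50 and EMD150, day 12), against 6.56 and 6.69 (RA5 and RA56), and at 6.79 and 7.05 against 6.67 at day 20. The EMD 82571 arrays were above the retinoic acid arrays of the same day in each case, by 0.27 ± 0.08 (limma's adjusted p = 0.61). This order without overlap on both days held for 9.35% of all genes. The control lay between the treatments at day 12, at 6.75, and above both EMD 82571 arrays at day 20, at 7.11.

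The sterol exporter Abcg5 was higher in EMD 82571 on both days. It stood at 8.70 (EMD50) and 9.58 (EMD150) at day 12, against 8.09 (RA5) and 7.64 (RA56), with 8.66 in the control. At day 20 it stood at 8.88 and 9.17, against 8.49 (RA56) and 8.77 in the control. The groups did not overlap on either day, which held for 9.35% of all genes in this direction, and the difference was 0.98 ± 0.24 (limma's adjusted p = 0.61). Its partner Abcg8, with which it forms 1 pump, stood at 7.77 and 8.04 against 6.96 and 6.99 at day 12. At day 20 the values of Abcg8 overlapped, at 7.31 and 8.09 against 7.70. These genes start on opposite strands, and the 205 bases between the starts (RefSeq, GRCr8, chr6:15717731-15717935, + strand) are given because both genes were higher together at day 12:
Abcg8 to Abcg5: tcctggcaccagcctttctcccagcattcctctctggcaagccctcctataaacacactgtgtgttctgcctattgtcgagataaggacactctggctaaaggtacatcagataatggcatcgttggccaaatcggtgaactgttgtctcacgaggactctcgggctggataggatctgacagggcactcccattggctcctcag
No letters are in capitals, since neither a DR5 nor the same units with a spacer of 4 bases (DR4, the arrangement that the oxysterol receptor LXR binds) were found in it. A DR4 was found in the 250 bases before the start of 24 of 33469 promoters (0.0717%).

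The retinoid list, which holds the genes that make, store, bind and break down vitamin A, had 22 of 36 genes higher in EMD 82571 (median 0.054), with 2 higher and 1 lower at an unadjusted p under 0.05. The gene lower was Lrat, which stores retinol as esters. It stood at 8.07 (EMD50) and 7.03 (EMD150) at day 12, against 8.58 (RA5) and 8.41 (RA56), with 7.38 in the control. At day 20 it stood at 6.69 and 6.83, against 7.24 (RA56) and 6.61 in the control. Its retinoic acid values were highest on each day, and the difference was −0.76 ± 0.22 (limma's adjusted p = 0.61). Of all genes, 6.87% lay lower in EMD 82571 on both days without overlap. The 2 higher were Adh4 and Aldh1a1.

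The smallest p-value of all genes belonged to Mest, an imprinted gene of embryonic mesoderm that is also expressed in fat tissue. Mest stood at 8.55 (EMD50) and 8.52 (EMD150) at day 12, against 9.81 (RA5) and 9.38 (RA56), with 8.74 in the control. At day 20 it stood at 7.39 and 7.04, against 8.58 (RA56) and 7.20 in the control. On both days the EMD 82571 arrays lay near the control and the retinoic acid arrays above it. Mest was lower at day 20 than at day 12 in the EMD 82571 and control arrays. The retinoic acid array of day 20 stood near their day 12 levels, as it did for many genes that fell between days. Whether its stage of pregnancy plays a part was not tested. The difference over both days and the fit of 22 arrays below include this array. The difference was −1.18 ± 0.14 (limma's adjusted p = 0.212), so retinoic acid livers stood 2.27-fold higher. At day 12 alone it was −1.06 ± 0.18 (limma's adjusted p = 0.454). In a fit that drew its spread from all 22 arrays, Mest was the only probe set of 15866 called (0.00630%), lower in EMD 82571 by −1.17 ± 0.17 (limma's adjusted p = 0.0358).

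Socs2, which curbs signalling by growth hormone, stood at 9.15 and 8.99 (EMD50 and EMD150, day 12), against 9.79 and 10.02 (RA5 and RA56), and the control stood at 10.12. At day 20 it stood at 9.03 and 8.60, against 9.78 (RA56) and 8.87 in the control. At day 12 the EMD 82571 arrays stood away from the control, and at day 20 the retinoic acid array did. The difference was −0.89 ± 0.13 (limma's adjusted p = 0.212). Of 37 genes of growth hormone, sex and pregnancy signalling, 9 were lower and 2 higher at an unadjusted p under 0.05, against 4.57% and 3.08% of all genes. Without the retinoic acid array of day 20 there were 4 lower and 4 higher. The 9 include Igfbp4, which binds insulin-like growth factors, at −0.41 ± 0.11, and Prlr, the prolactin receptor, at −0.64 ± 0.20 (SE).

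Some matrix genes of the liver's stellate cells and stroma were lower in EMD 82571. Lum, a collagen-binding proteoglycan, stood at 6.30 and 6.51 (EMD50 and EMD150, day 12), against 6.89 and 7.10 (RA5 and RA56), and at 6.35 and 6.37 against 7.35 at day 20. The controls stood at 7.10 and 6.35. Dcn, a second proteoglycan of this class, stood at 7.92 and 8.06 against 8.76 and 8.55 at day 12, and at 7.97 and 8.21 against 8.71 at day 20. The controls of Dcn stood at 8.82 (day 12) and 8.29 (day 20). The differences were −0.75 ± 0.10 for Lum, −0.65 ± 0.11 for Dcn and −0.44 ± 0.09 for the collagen gene Col1a2 (SE), with limma adjusted p-values of 0.212, 0.269 and 0.541. Of 22 stromal genes 5 were higher and 17 lower (median −0.150), and 5 were lower at an unadjusted p under 0.05. Without the retinoic acid array of day 20, 10 of 22 were higher (median −0.060) and 4 were lower at that p. In bulk tissue, fewer cells of a type and less RNA per cell cannot be told apart.

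**Figure D4:**
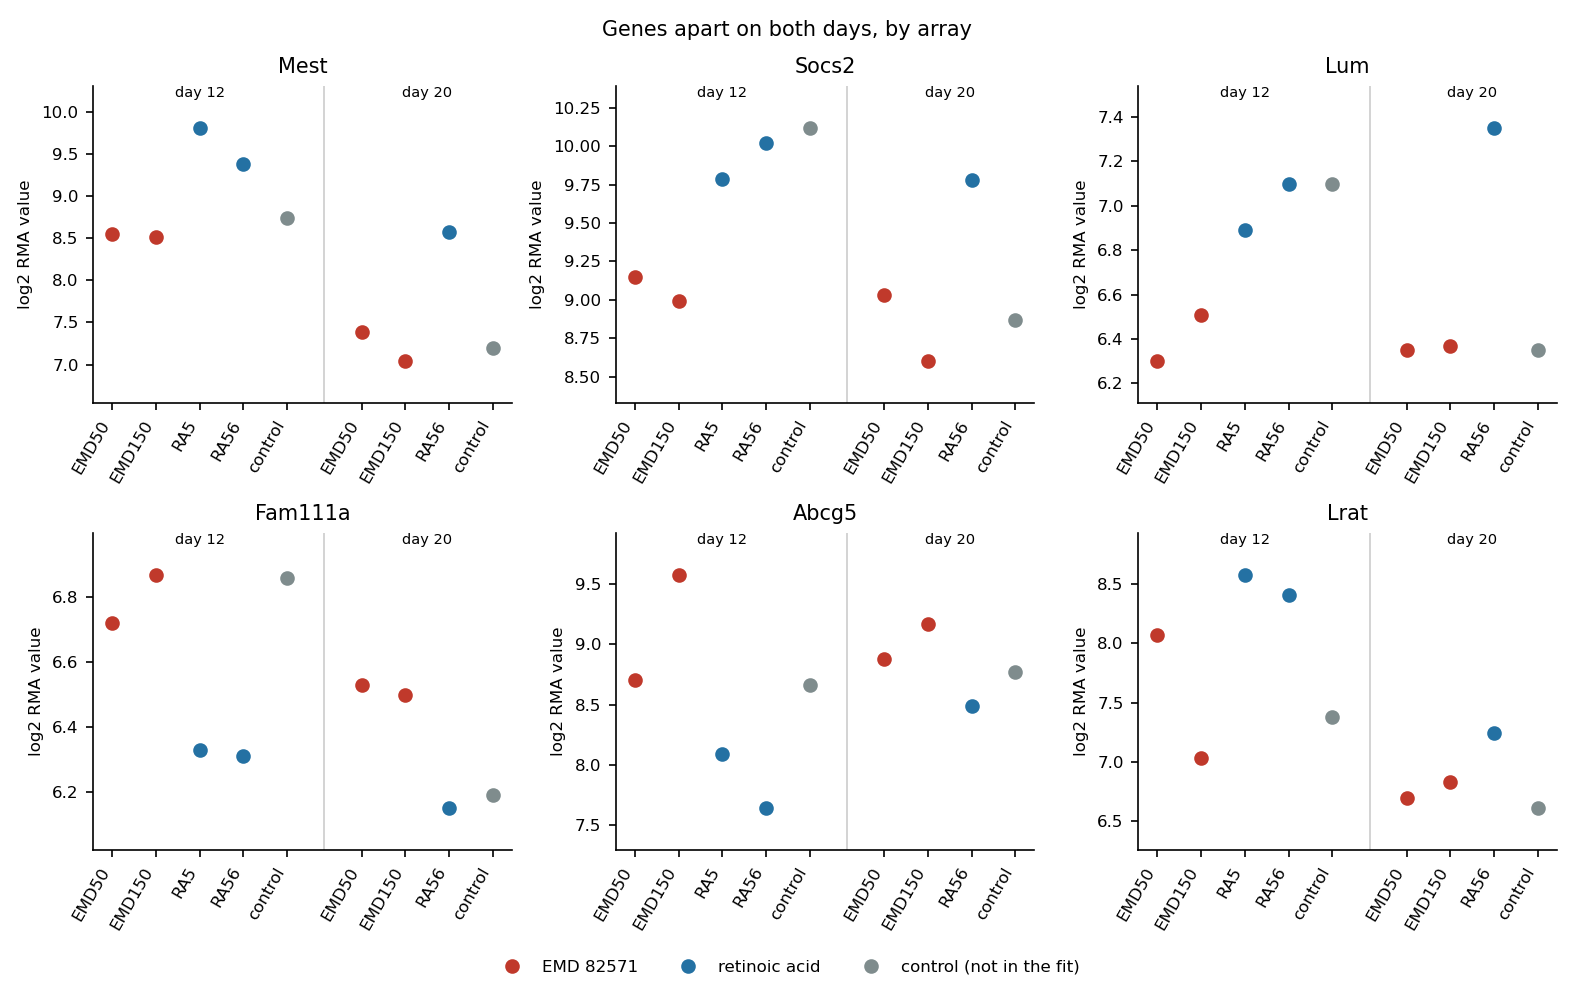
Log2 RMA value (vertical axes) of Mest, Socs2, Lum, Fam111a, Abcg5 and Lrat in each maternal liver array (horizontal axis, by treatment and day, 1 point per array). For each gene the EMD 82571 arrays do not overlap the retinoic acid arrays of the same day, with Mest at 8.55 and 8.52 against 9.81 and 9.38 at day 12. Of all genes, 6.87% lay lower and 9.35% higher in EMD 82571 on both days without overlap.

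Among the genes higher in EMD 82571, Fam111a, a protease that limits virus growth in human cells, had the smallest p-value. It stood at 6.72 and 6.87 (EMD50 and EMD150, day 12), against 6.33 and 6.31 (RA5 and RA56), and at 6.53 and 6.50 against 6.15 at day 20. The values were low and close, and the difference was 0.43 ± 0.06 (limma's adjusted p = 0.212). At day 12 alone the differences of Fam111a, Socs2 and Lum were 0.47, −0.84 and −0.59. Genes of red cells were higher as a group: 11 of 11 were higher (median 0.260) and 7 had an unadjusted p under 0.05. Alas2, the first enzyme of heme synthesis in red cell precursors, stood at 9.26 and 9.04 against 8.94 and 8.44 at day 12, and at 9.94 and 9.26 against 8.81 at day 20. The control of day 12 stood above all of these, at 10.70. Without the retinoic acid array of day 20, all 11 were still higher, but 1 had an unadjusted p under 0.05. All 11 also stayed higher after quantile normalisation and after scaling to a common median and MAD. Whether blood left in the tissue differed was not tested.

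Genes of lipid handling were mixed. Of 37 genes of fatty acid synthesis, 11 were higher (median −0.100), with 2 higher and 5 lower at an unadjusted p under 0.05. After scaling to a common median and MAD, 16 were higher (median −0.035), with 4 higher and 3 lower at that p. By day, 14 of 37 were higher at day 12 and 20 at day 20, so the direction is not settled. Scd, the desaturase that makes monounsaturated fatty acids, stood at 11.61 and 11.31 against 12.43 and 12.10 at day 12, and at 10.38 and 11.27 against 11.63 at day 20. Its retinoic acid values were above the EMD 82571 values of the same day, and the difference was −0.81 ± 0.21 (SE). Lpin1, which makes diacylglycerol, and Pnpla3, a lipase of lipid droplets, differed by −0.69 ± 0.15 and −0.50 ± 0.11. Fads2, a desaturase of polyunsaturated fatty acids, went the other way, by 0.50 ± 0.14 (limma's adjusted p = 0.61).

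Among clock genes, Per2, which represses its own activators, stood at 9.64 and 9.58 (EMD50 and EMD150) at day 20, against 7.56 (RA56) and 9.42 in the control. At day 12 Per2 stood at 9.05 (EMD50) and 9.29 (EMD150), against 8.41 (RA56) and 8.94 in the control. RA5 lay above that control and only just below EMD50. The EMD 82571 arrays were thus above both retinoic acid arrays, but their mean difference of 0.47 ± 0.20 (SE) came mainly from RA56. Nr1d1, a repressor of the other arm of the clock, stood at 5.92 and 5.73 against 7.07 and 5.81 at day 12, and at 6.61 and 6.29 against 7.28 at day 20. The differences were 1.10 ± 0.30 and −0.70 ± 0.25 (SE). For Nr1d1 the EMD 82571 arrays overlapped RA56 at day 12. The labels give no hour of killing.

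Lists of highly expressed housekeeping genes depended on the scaling of the arrays. Of 65 genes of the respiratory chain, 14 were higher in EMD 82571 in the deposited values, 34 after quantile normalisation and 38 after scaling to a common median and MAD, so the direction over both days is not settled. The days were opposed: 0, 8 and 12 of 65 were higher at day 12 under these scalings, and 46, 48 and 50 at day 20. Over both days the count also depended on scaling for 39 ribosomal protein genes (12, 19 and 22 higher) and 50 genes of gluconeogenesis and amino acid breakdown (11, 20 and 26). Genes of RNA processing kept a low count, with 12 of 61 higher in the deposited values (median −0.183) and 14 under each of the other scalings. Of these 61, 8 were lower and 1 higher at an unadjusted p under 0.05, with 1 lower and 0 higher without the retinoic acid array of day 20, and 17 lower and 0 higher without the EMD50 array of day 12. Proteasome genes also kept a low count, with 7, 10 and 11 of 36 higher. At an unadjusted p under 0.05, 8 of the 36 were lower in the deposited values, but 2 and 3 under the other scalings. Only 1 was lower at that p without the retinoic acid array of day 20. At day 12 alone, 9 of 61 RNA processing and 1 of 36 proteasome genes were higher in the deposited values. At day 20 it was 16 of 61 and 17 of 36, so the proteasome list was near even on that day. Snrpe, a core protein of the spliceosome, and Psma2, a core proteasome subunit, differed by −0.36 ± 0.11 and −0.50 ± 0.12 (SE).

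**Figure D5:**
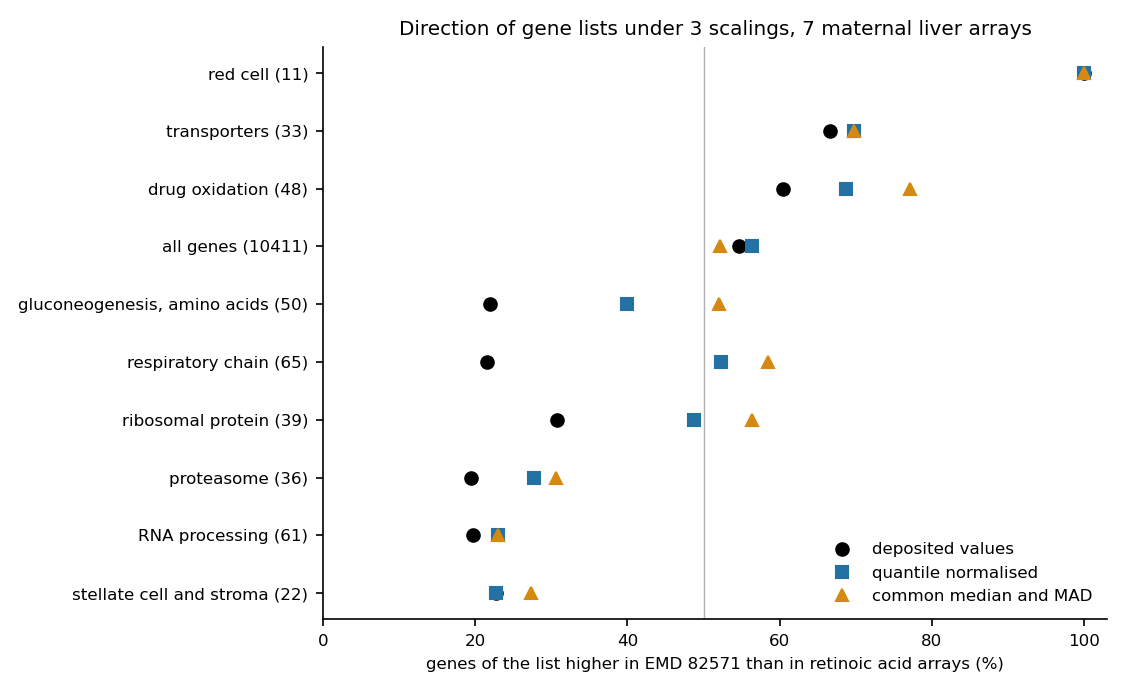
Share of the measured genes of each list that were higher in EMD 82571 than in retinoic acid maternal liver (horizontal axis, percent; the number of genes is in parentheses) under 3 scalings of the 7 arrays. The respiratory chain moves across the middle line (14, 34 and 38 of 65 genes), whereas red cell genes (11 of 11) and RNA processing genes (12, 14 and 14 of 61) stay on 1 side.

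A test of whether the difference between treatments changed between days called 38 of 15866 probe sets (0.240%), 3 higher and 35 lower at day 20, and 30 of 10411 genes (0.288%). The skeletal muscle list holds 26 of the 38 probe sets and 22 of the 30 genes, and these follow the single retinoic acid array of day 20. Acta1, the skeletal actin, had the largest drop of the difference, at −6.12 (limma's adjusted p = 4.64e-06). Mt2A was among the 3 higher. Its difference was −1.20 at day 12 and 1.30 at day 20, a change of 2.51 (limma's adjusted p = 0.0468). This call was lost without the muscle list (limma's adjusted p = 0.148), among probe sets above the median level (0.0851), without the intensity trend (0.117) and without any 1 of the 4 arrays of day 12 (0.0761 to 0.191). Within days, limma called 0 probe sets at day 12, where 512 had an unadjusted p under 0.05, and 122 (0.769%) at day 20, where 131 genes (1.26%) differed by at least 2-fold. All calls at day 20 rest on 1 retinoic acid array, whose spread is assumed to be that of the other groups. On the muscle list are 35 of them. Of the 122, 20 differed at least 2-fold between days in the EMD 82571 and control arrays, and for 18 of them this array lay nearer day 12. Mest, Lum and Per2 were among the calls at day 20, with differences of −1.37, −0.99 and 2.05 (limma's adjusted p = 0.0327, 0.0145 and 0.00753).

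The doses of EMD 82571 were compared with day as a block, and limma called 0 of 15866 probe sets, with 1167 at an unadjusted p under 0.05 (12 called without the EMD50 array of day 20). The Cyp2b subfamily probe set was higher at EMD150 by 1.65 (limma's adjusted p = 0.659). Abcc3, Ugt2b1 and Abcg5 were higher at EMD150 by 0.52, 0.51 and 0.58, each with a limma adjusted p of at least 0.659. A2m, the protein alpha-2-macroglobulin, was high at day 20 in all arrays, at 12.06 and 12.11 in EMD 82571, 13.07 in retinoic acid and 12.73 in the control. At day 12 it was at 11.21 in EMD150 and between 7.54 and 7.89 in the other 4 arrays. With 1 array per dose and day, this has no replicate check.

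The difference in maternal liver was set against that in the conceptus (whole embryos at day 12, liver and bone of embryos at day 20), with 6 EMD 82571, 4 retinoic acid and 3 control arrays. In the conceptus limma called 739 of 15866 probe sets (4.66%), and 52.0% of genes were higher in EMD 82571. The count for the gap itself, that is, the difference in maternal liver minus that in the conceptus, was 0 in limma, with 629 at an unadjusted p under 0.05. Nothing above is therefore shown to be particular to maternal liver. The Cyp2b subfamily probe set differed by 0.03 in the conceptus, Cyp26a1 by −0.04 and Mest by −0.12. The gap for Cyp26a1 passed once the retinoic acid array of day 20 was left out (limma's adjusted p = 0.00768). Lum and Dcn were lower under EMD 82571 in the conceptus too, by −1.08 and −0.79, and both passed there (limma's adjusted p = 0.00498 and 0.0478). Fam111a, higher in EMD 82571 maternal liver, was lower in the conceptus by −0.90 and passed there (limma's adjusted p = 0.00543).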

How the data were processed

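RNA of 22 Wistar rat samples was measured on 1-colour arrays. The authors deposited log2 values, and the submitters' processing notes name RMA, which corrects background, quantile-normalises and summarises probes; they give no version. Of 15923 rows, 57 were controls and 15866 were tested with no filter. Of these, 12783 had 1 gene symbol, 312 several and 2771 none, leaving 10411 genes, each represented by its probe set with the highest mean over the 7 arrays. Array medians ran between 8.09 and 8.13 over the 9 maternal arrays. Precision is limited by how few arrays there are.

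Linear models used limma 3.58.1 (R 4.3.3, eBayes with an intensity trend), with two-sided p-values adjusted by Benjamini-Hochberg over all probe sets. The main model compared 4 EMD 82571 with 3 retinoic acid arrays with day as a block (4 residual degrees of freedom). Other models took a mean per treatment and day, the doses, or all 22 arrays with tissue and day as a block. The fits were tested on simulated data. The 24 gene lists and 13 marker lists and the compared arrays were chosen with earlier results of these data known. Named genes were Ugt2b1, Cyp26a1, Abcc3, the 10 smallest p-values per direction, up to 4 per list and list members at least 1 log2 apart. The 5 smallest p-values per direction of each other comparison, and marker genes that check the labels, were also named. A day 12 view at 2-fold, the Cyp2b subfamily probe set, A2m, Cyp3a23-3a1 and Ephx1 were added after values were seen. Differences are EMD 82571 minus retinoic acid.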

Additional observations from a re-analysis of the deposited data

Results flagged for a closer look

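The difference between EMD 82571 and retinoic acid differed between days, by the test of that change, for 38 probe sets. The 10 genes with the smallest p-values were Myl1 (day 20 minus day 12 of the difference: −5.17), Acta1 (−6.12), Myh4 (−2.84), Mb (−3.30), Myh2 (−3.05), Ckm (−3.92), Tnnt3 (−2.49), Tnni2 (−2.80), Tnnc2 (−3.19) and Myl11 (−3.76). All 10 are muscle genes, and the retinoic acid array of day 20 carries the excess: its Myl1 stood at 10.89, against 5.75 to 5.94 in the EMD 82571 arrays and 5.82 and 5.84 in the other retinoic acid arrays. Its Ckm stood at 11.30, against 7.18 to 7.45 and 7.27 to 7.30. The source of this signal was not tested.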

How the results depend on the processing

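The count of 0 probe sets called between EMD 82571 and retinoic acid held without the intensity trend, with robust eBayes, for probe sets above the median level, under both other scalings, with the 9 maternal arrays, with RA5 and RA56 averaged, without the day block, at each dose alone and with each array left out in turn. It was 1 with all 22 arrays (Mest) and 1 with the day 12 arrays (the second probe set of Slco1a4). A fit without both arrays that carry another tissue's genes was added after seeing the data. It has no retinoic acid array at day 20, so it sets the EMD150 array of day 12 alone against RA5 and RA56. Only its differences are given, 3.63 for A2m and 4.63 for the Cyp2b subfamily probe set. Over 72 described genes and 1423 values under the alternatives, 9 values of 3 genes turned direction. Outside the fit without both arrays, the only value to pass the threshold was that of Mest with all 22 arrays (−1.17). Mt2A turned to 0.05 with RA5 and RA56 averaged and 0.14 at EMD50 alone, and ran between −1.20 (without retinoic acid of day 20) and 0.15 with 1 array left out, turning without EMD150, RA5 or RA56 of day 12. At EMD50 alone Hamp turned to 0.06 and A2m to −0.27, and both turned without EMD150 of day 12, with ranges of −1.07 to 0.06 and −0.35 to 1.96 with 1 array left out. The 38 calls for a change between days became 3 for probe sets above the median level, 25 to 242 with 1 array left out (25 without RA5 of day 12, 95 without the EMD50 and 242 without the EMD150 array of day 20), and 2 without the muscle list, added after seeing the data; the change cannot be estimated without the retinoic acid array of day 20. The 0 calls between doses became 0 to 12 with 1 array left out (12 without the EMD50 array of day 20). The 0 calls for maternal liver minus conceptus became 2 without the EMD50 bone array (Timeless and Fam111a), and 0 to 1 with 1 array left out: Nr1d1 without RA56 of day 12, and Cyp26a1 without the array of day 20. The causes were not tested. Within maternal liver no paired analysis was possible because no label links an EMD 82571 array to a retinoic acid array. Across tissues the codes RA5 and RA56 recur at day 12, and with code and day as a replicate block, added after seeing the data, maternal liver minus conceptus again had 0 calls in limma (631 at an unadjusted p under 0.05). RA5 minus RA56 correlated at −0.14 between whole embryo and maternal liver over 15866 probe sets, and the crossed pairing also gave 0 calls. With 1 array per dose and day, small differences of dim probe sets have no replicate check at their own dose and day.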
